A study of Gallus gallus with 2 samples.

Results

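FOXO1 peaks with a near neighbour are the listed peaks whose centre lies at most 10 kb from the centre of another listed peak on the same chromosome. They numbered 461 of 3317 peaks (13.9%), and the remaining 2856 are called isolated here. Membership was set by position alone, so tag numbers and folds played no part in the choice beyond the authors' own selection of peaks. FOXO1 ChIP DNA (1 library) and input DNA (1 library, no antibody) came from primary myoblasts of 11-day chicken embryo thigh muscle. Both libraries were made after the cells had been moved from medium with 20% fetal bovine serum to medium with 2% horse serum, in which myoblasts differentiate. The labels give no genotype, sex or number of embryos. With 1 library on each side no value has a replicate check and no test between conditions was possible; intervals cover counting error only, and take peaks or tags as independent, which neighbouring peaks and PCR copies are not.

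FOXO1 is a forkhead transcription factor that enters the nucleus when insulin and growth factor signalling through Akt is low, and binds DNA there. In muscle it is known for its part in atrophy, in fibre type and in the timing of myoblast fusion. Sites of a single factor can lie in groups along an enhancer or promoter, and a peak list shows such groups as peaks with short distances between them. Positions below are as listed by the authors, whose genome build is not given in the sources used here, so gene annotation and sequence at the peaks were not analysed here.

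The ChIP library held 2207278 tags. Each peak was 203 bp wide and had to reach a score of 7 tags and a 4-fold excess over input. Input tags are given below as whole tags recovered from total tags and fold, since the list holds only scaled control tags. After scaling to the ChIP library, 1 input tag was worth 0.05298 of a tag, so 11 input tags stand for less than 1 scaled tag. The median listed peak held 7 ChIP tags, the same number as the score threshold, which leaves little room for differences between most peaks.

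The 461 peaks formed 214 groups when adjacent peaks at most 10 kb apart were linked. Of these, 194 were pairs, 17 had 3 members, 2 had 4 members and 1, on chromosome 1, had 14. Grouping was therefore mostly a matter of pairs: 388 of the 461 peaks had a single partner. Without the chromosome 1 stretch, 447 peaks in 213 groups were left.

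The 247 distances between linked neighbours had a median of 4986 bp (quartiles 1798 and 7298 bp, range 371 to 9997 bp). They were not spread evenly. Between 500 and 1000 bp there were 32 pairs, or 64 per kb of distance (Poisson 95% interval 43.8 to 90.3). Between 1 and 10 kb there were 23.4 pairs per kb on average, with 14 to 33 in single kb, and between 10 and 20 kb there were 21 per kb (18.3 to 24.04). Distances of 500 to 1000 bp were thus the most frequent per kb, while under 500 bp there were 4 pairs, or 8 per kb (2.18 to 20.5). The authors' caller had kept peaks at least 406 bp apart before centring them, and 1 pair was closer than that in the list. The chromosome 1 stretch had no distance under 2062 bp, so all 36 pairs under 1 kb lay elsewhere.

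**Figure D1:**
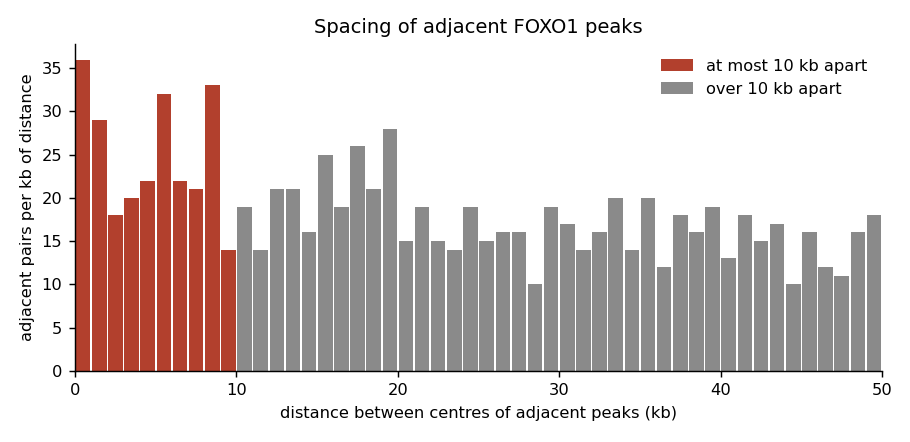
Number of adjacent peak pairs (vertical axis) per kb of distance between their centres (horizontal axis, kb, up to 50), with pairs at most 10 kb apart in red and pairs further apart in grey. The first bar, under 1 kb, holds 36 pairs, although the caller barred nearly all distances under 406 bp; the bars from 1 to 10 kb hold 14 to 33.

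Those just inside the limit did not stand apart from those just outside. On chromosome 23, peaks starting at 690154 and 700151 were 9997 bp apart and had 8 and 7 ChIP tags against 9 and 8 input tags. The next were on chromosome 6, at distances of 9929 and 9771 bp, with 6 to 8 ChIP tags. Just outside, peaks on chromosome 9 starting at 4470585 and 4480597 were 10012 bp apart and had 8 and 9 ChIP tags against 9 and 26 input tags. Pairs at 10054 bp on chromosome 2 and at 10066 bp on chromosome 13 had 7 to 11 ChIP tags.

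Most peaks with a near neighbour were low in tag number, as isolated ones were, but the sets differed at both ends. The lowest score of 7 was held by 34.0% of near peaks without the chromosome 1 stretch (29.6 to 38.6). It was held by 45.8% of isolated peaks (43.9 to 47.6) and by 44.0% of all listed peaks. Near peaks had a median of 8 ChIP tags (quartiles 7 and 9), against 7 (7 and 8) for isolated peaks. Their median input was 12 tags (95% interval of the median 11 to 13), against 11 (11 to 11), and the median of the scaled control tags was 0.6 in both. The median fold over input was 13.21 in both, with an interval of 12.01 to 14.16 for near peaks and 13.07 to 13.48 for isolated peaks. Leaving out the chromosome 1 stretch changed none of these medians.

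Tall peaks made up a larger share of the near set. Of the near peaks, 21 (4.56%) held 20 ChIP tags or more, against 12 isolated peaks (0.420%) and 0.995% of all listed peaks. Of these 21, 13 lay in the chromosome 1 stretch. Without it the share was 1.79% (8 peaks, exact 95% interval 0.776 to 3.50), and the isolated interval was 0.217 to 0.733%. Of these 8 peaks, 6 had a neighbour within 1 kb. They are not independent, so the near interval is too narrow and the difference was not tested. At 10 ChIP tags or more, the shares were 20.6% of near peaks without the stretch and 13.5% of isolated peaks, with 14.8% of all listed peaks. The listed peak with most ChIP tags was itself isolated, on chromosome Z at 68963760 to 68963962, with 1507 ChIP tags and 3010 input tags. Its score was only 117, and its clonal fold, a deposited ratio, was 1.73 against a median of 0.85 in the list. By score the highest listed peak, at 418, lay in the chromosome 1 stretch. After the chromosome Z peak, the isolated peaks with most ChIP tags had 304 on chromosome 1 at 152081702 to 152081904, and 130 on chromosome 19 at 66546 to 66748.

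The same held for input. Of the near peaks without the stretch, 70 (15.7%, interval 12.4 to 19.4) had 20 input tags or more, against 210 isolated peaks (7.35%, 6.42 to 8.37) and 8.86% of all listed peaks. A fold over input under 6 was found at 28 near peaks without the stretch (6.26%, 4.20 to 8.93), against 35 isolated peaks (1.23%, 0.855 to 1.70) and 1.96% of all listed peaks. Pooled over peaks, the fold of near peaks without the stretch was 9.83 (9.47 to 10.2), against 12.4 (12.2 to 12.6) for isolated peaks. Among peaks under 100 input tags the gap was smaller, 11.4 (10.9 to 11.9) against 12.8 (12.6 to 13.03), so part of it rested on 4 near peaks on chromosomes 19 and 23. With the stretch the near peaks came to 11.3 (11.04 to 11.7). The lower 95% limit of the fold exceeded 4 at 272 near peaks (59.0%), against 1729 isolated peaks (60.5%), close to the 60.3% of all listed peaks.

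Seen the other way, the share of listed peaks with a near neighbour was higher among strong peaks. It was 10.4% at the lowest score of 7 (152 of 1459 peaks) and 14.1% to 16.1% at scores of 8 to 11. At scores of 12 to 19 it was 24.0% (47 of 196). At scores of 20 and above it was 66.7% (22 of 33), or 45% (9 of 20, 23.1 to 68.5) without the stretch. By input, the share stayed at 12.4% to 12.6% up to 19 input tags, reached 22.6% at 20 to 49 tags (57 of 252), and was 46.4% (13 of 28) at 50 tags and above without the stretch. Score and input are linked, and their separate parts were not tested.

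High input and low folds were most frequent at the closest peaks. The 72 peaks with a neighbour within 1 kb had a median of 14.5 input tags (12 to 17) and a median fold of 10.97 (8.39 to 13.21). The 215 peaks outside the stretch whose nearest neighbour was 5 to 10 kb away had medians of 11 (10 to 12) input tags and a fold of 13.73 (12.58 to 14.83). The medians of isolated peaks, 11 (11 to 11) and 13.21 (13.07 to 13.48), lay inside these intervals. A fold under 6 was found at 16.7% (8.92 to 27.3) of the closest peaks, at 5.63% (2.60 to 10.4) of those 1 to 5 kb away and at 3.26% (1.32 to 6.59) of those 5 to 10 kb away. The pooled fold was 6.72 (6.29 to 7.18) within 1 kb and 12.3 (11.6 to 13.1) at 5 to 10 kb. A few tall peaks weighed on the first value: without the 4 of these peaks with 100 or more input tags, on chromosomes 19 and 23, it was 9.16 (8.32 to 10.1), against 12.8 (12.6 to 13.03) for isolated peaks under the same limit.

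ChIP tags in the 10 kb around a peak, neighbours included, were more numerous at near peaks. Tags of the surrounding 10 kb, scaled to a peak width, had a median of 0.746 around near peaks and 0.539 around isolated peaks. The fold over that local background was accordingly lower, with a median of 10.49 (10.05 to 10.86) against 14.3 (14.08 to 14.48). A neighbour inside the window adds its own tags to this background. Neither the local tags nor the local fold is therefore independent of having a neighbour. Without the stretch, median local tags were 0.846 with the nearest neighbour under 1 kb away, 0.808 at 1 to 5 kb and 0.663 at 5 to 10 kb. How much of the difference came from tags of the neighbours was not tested. The caller also removed 338 putative peaks by this local limit, and such peaks could have been neighbours; the groups described are groups of listed peaks.

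Near peaks were found on all 29 chromosomes that carried listed peaks, and their share followed the density of the list. On chromosomes 11 and above, the small and gene-rich ones, 245 of 1200 peaks (20.4%, 18.2 to 22.8) had a near neighbour, at 7.03 listed peaks per Mb. On chromosomes 6 to 10 the share was 14.1% (11.3 to 17.3) and on chromosomes 1 to 5 it was 8.99% (7.60 to 10.5), or 8.14% (6.80 to 9.64) without the stretch. On chromosome Z only 4 of 65 peaks were near. Chromosomes 11 and above thus held 53.1% of near peaks and 33.4% of isolated peaks. Where peaks are denser, distances between them are shorter by arithmetic, so this order does not show a stronger tendency to group.

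Single chromosomes had shares that only partly followed their density. Chromosome 16, covered over 0.448 Mb, had 6 of 10 peaks near (60%, 26.2 to 87.8). Chromosome 25 had 13 of 32 (40.6%, 23.7 to 59.4) and chromosome 23 had 23 of 70 (32.9%, 22.1 to 45.1). Chromosome 26 had a density close to that of chromosome 23, 12.04 against 12.2 peaks per Mb, and 10 of 64 near (15.6%, 7.76 to 26.9), with overlapping intervals. Among the long chromosomes, 4 had 30 of 230 near (13.04%, 8.98 to 18.1) and 3 had 10 of 257 (3.89%, 1.88 to 7.04), at 2.55 and 2.33 peaks per Mb, and these intervals did not overlap. The pair was picked after its values were seen. Over the 29 chromosomes, Spearman's rho between density and share was 0.775, and 0.785 without the stretch, as a description: the number of peaks enters both measures.

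**Figure D2:**
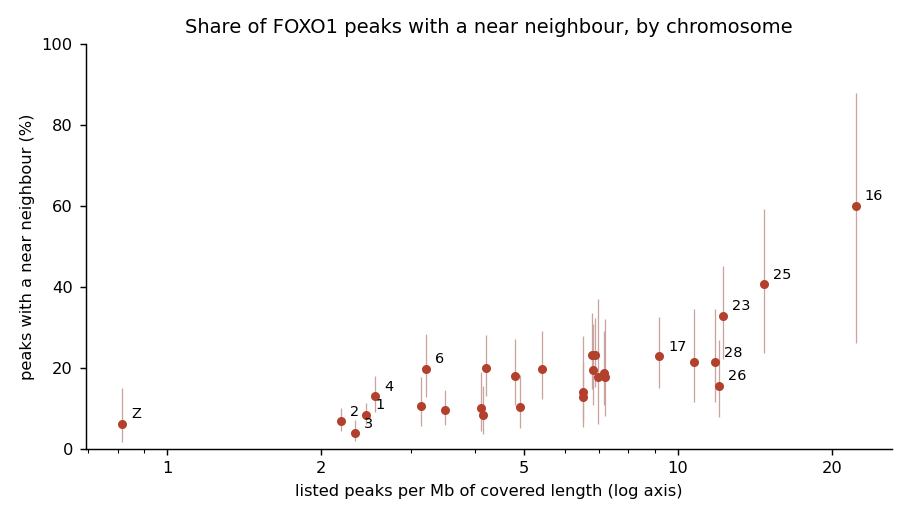
Share of listed peaks with a near neighbour (vertical axis, percent, with exact 95% binomial intervals) against listed peaks per Mb of covered length (horizontal log axis) on 29 chromosomes, without the chromosome 1 stretch; some chromosomes are labelled. Shares run between 3.89% on chromosome 3 and 60% on chromosome 16, where 10 peaks give a wide interval.

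Within each class of chromosomes the same comparison was made, since near and isolated peaks were unequally spread. Median ChIP tags were 8 for near and 7 for isolated peaks on chromosomes 1 to 5, on 6 to 10 and on 11 and above. The median input of near peaks was 12, 11 and 12 tags in these classes without the stretch, against 11 for isolated peaks in each. Local tags were also higher around near peaks in each class, again without the stretch. They were 0.746 against 0.497 on chromosomes 1 to 5 and 0.704 against 0.559 on 6 to 10. On chromosomes 11 and above they were 0.746 against 0.622. These local tags include those of any neighbour inside the 10 kb window.

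Whether neighbours were alike was read from each linked pair, entered in both orders, as Spearman's rho. Neighbours within 10 kb were weakly alike. For ChIP tags the value was lower without the chromosome 1 stretch, and for fold it was not. Over all 247 pairs rho was 0.312 for ChIP tags, 0.378 for scaled control tags and 0.231 for fold over input. Without the stretch, over 234 pairs, the values were 0.184, 0.268 and 0.256. For the 3041 pairs of adjacent peaks further apart they were 0.0532, 0.0293 and 0.0279. These are descriptions across sites of 1 library pair, in which most ChIP counts are tied near 7 and pairs of one group share peaks. Without the stretch, the near values also moved with the peaks kept. At a score of at least 8 they were 0.428, 0.561 and 0.567. At a fold of at least 8 they were 0.0481, -0.00633 and 0.0215. Both filters cut the range of the values compared.

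The closest pairs were the most alike, and beyond 1 kb the measures took different courses. In the 36 pairs under 1 kb, rho was 0.554 for ChIP tags, 0.572 for scaled control tags and 0.438 for fold. The header does not say over which width input tags were counted, so whether the closest peaks share input tags could not be checked. Without the stretch, ChIP tags had a rho of 0.419 at 1 to 2 kb (29 pairs), 0.229 at 2 to 5 kb (53 pairs) and -0.0458 at 5 to 10 kb (116 pairs). For scaled control tags the course was not steady, with 0.109, 0.108 and 0.268 over the same distances, and 0.0910 at 10 to 20 kb (210 pairs). Fold took a like course, with 0.105, 0.0907 and 0.277, and 0.0695 at 10 to 20 kb. Fold is ChIP tags over scaled control tags, and ChIP tags varied little at most peaks. Its rho is therefore not separate from that of the control tags. The local background showed the longest reach, with 0.969 under 1 kb and 0.223 at 20 to 50 kb, but windows of 10 kb around close peaks share tags. The focus ratio, which describes how tightly tags sit around a peak's centre, had a rho of 0.0265 over all near pairs, with 0.304 under 1 kb and -0.207 at 1 to 2 kb.

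**Figure D3:**
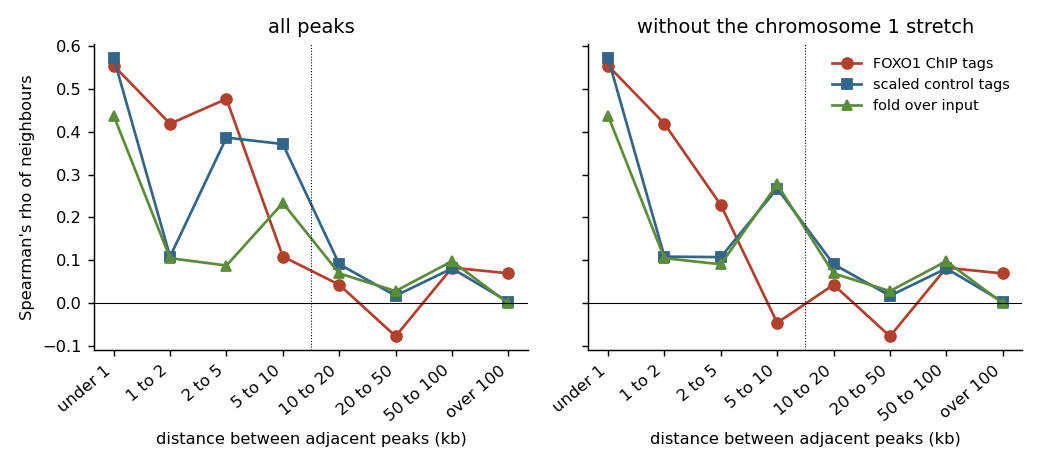
Spearman's rho between adjacent peaks (vertical axis) by the distance between them (horizontal axis, kb) for ChIP tags, scaled control tags and fold over input, in all peaks (left) and without the chromosome 1 stretch (right); the dotted line marks 10 kb. All 3 measures are highest under 1 kb, at 0.554, 0.572 and 0.438, and lie within 0.1 of 0 beyond 10 kb.

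By chromosome class, the likeness of the closest pairs was uneven. On chromosomes 11 and above, the 14 pairs under 1 kb had a rho of 0.692 for ChIP tags and 0.745 for scaled control tags. On chromosomes 1 to 5, 13 such pairs had 0.608 and 0.373, and on chromosomes 6 to 10 only 8 pairs were available, with 0.133 and 0.106. Without the chromosome 1 stretch, pairs 1 to 10 kb apart had 0.0863 to 0.117 for ChIP tags in the 3 classes. For scaled control tags they had 0.234 on chromosomes 11 and above, 0.0340 on 1 to 5 and 0.272 on 6 to 10.

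Counted as pairs, joint highs were more frequent among near pairs. Both members had 20 input tags or more in 30 of 247 near pairs (12.1%, 8.35 to 16.9). Without the stretch this held for 17 of 234 (7.26%, 4.29 to 11.4), against 29 of 3041 pairs further apart (0.954%, 0.640 to 1.37). Both members had 10 ChIP tags or more in 21 near pairs without the stretch (8.97%, 5.64 to 13.4), against 78 pairs further apart (2.56%, 2.03 to 3.19). A fold under 6 was shared by both members in 8 of 247 near pairs, none of them in the stretch, and in 3 of 3041 pairs further apart (0.0987%). Single near peaks without the stretch were also more often high: 15.7% against 7.35% of isolated peaks had 20 input tags or more. For 10 ChIP tags or more the shares were 20.6% and 13.5%, and for a fold under 6 they were 6.26% and 1.23%. The joint shares were not adjusted for this, and the difference was not tested.

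Few neighbours differed in ChIP tags beyond counting error. The exact interval of the ratio left out 1 in 11 near pairs (4.45%), of which 10 were in the stretch, against 0.954% of pairs further apart. At a median of 8 tags only large ratios can be resolved, so this does not show that neighbours were equal. Input, with more tags, resolved more: 44 of 234 near pairs without the stretch differed (18.8%, 14.01 to 24.4), close to the 19.5% of pairs further apart. This share depends on tag number as well as on spread, so it does not measure the spread within pairs. Without the stretch it was 25% under 1 kb, 24.1% at 1 to 2 kb, 24.5% at 2 to 5 kb and 12.9% at 5 to 10 kb.

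**Figure D4:**
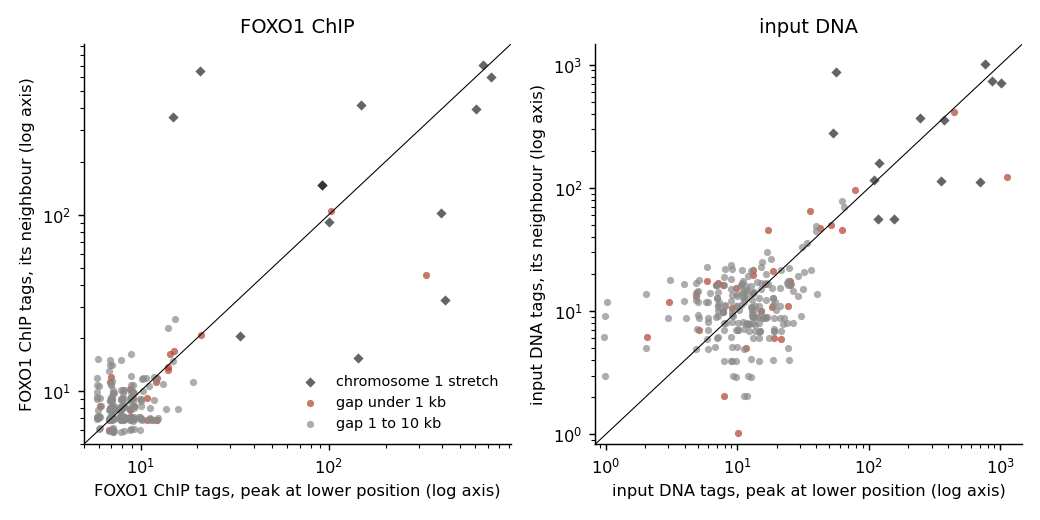
Tags of each near peak's linked neighbour (vertical log axis) against its own tags (horizontal log axis) in the FOXO1 ChIP library (left) and the input library (right), 247 pairs, with points moved by at most 3% to separate ties. Black diamonds are the chromosome 1 stretch, red points pairs under 1 kb apart and grey points pairs 1 to 10 kb apart; the line marks equal tags, and outside the stretch the points above 100 tags belong to close pairs on chromosomes 19 and 23.

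Among the pairs, the 3 with most ChIP tags were close together and rich in input. On chromosome 23, the peak at 5721121 to 5721323 had 329 ChIP tags against 1133 input tags, and its neighbour 523 bp away had 46 against 124. On chromosome 19, peaks starting at 170330 and 170944 had 102 and 104 ChIP tags against 442 and 412 input tags. On chromosome 8, peaks starting at 8923299 and 8923806 had 21 ChIP tags each against 78 and 96 input tags. The folds in these 3 pairs lay between 4.13 and 7, near the 4-fold limit of the caller. The chromosome 23 pair was the only one outside the stretch whose ChIP tags differed beyond counting error.

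Most of the next pairs by ChIP tags were also rich in input, at distances between 472 and 6230 bp. On chromosome 6, peaks starting at 8788723 and 8789823 had 15 and 25 ChIP tags against 64 and 68 input tags. On chromosome 20, at 5832296 and 5838492, there were 14 and 22 against 63 and 76. On chromosome 28, at 29978 and 30647, there were 14 and 13 against 52 and 49. Input was again several times the list's median of 11. Near the first listed bases of chromosome 23, at 2079 and 2551, 14 and 16 ChIP tags stood against 61 and 45 input tags, and on chromosome 1 at 77949552 and 77950421, 14 each stood against 36 and 66. An exception was the pair on chromosome 23 at 2500165 and 2504619, where 19 and 11 ChIP tags stood against 21 and 15 input tags, with folds of 17.08 and 13.84. A mixed pair lay near the first listed bases of chromosome 1, at 1971 and 8201, with 15 ChIP tags in each peak, 41 and 14 input tags and folds of 6.91 and 20.22.

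The closest pair of all was on chromosome 5, where peaks starting at 50383934 and 50384305 were 371 bp apart. Each had 12 ChIP tags, against 18 and 11 input tags, with folds of 12.58 and 20.59. On chromosome 13, peaks starting at 528251 and 528714 had 7 and 8 ChIP tags against 13 and 22 input tags. On chromosome 4, those at 83537589 and 83538092 had 7 and 10 against 16 and 17. Input at these 6 peaks lay between 11 and 22 tags, below that of the tall close pairs on chromosomes 8, 19 and 23. The remaining pairs among the 5 closest, described above and below, lay outside that range. They had 61 and 45 input tags on chromosome 23, at 472 bp, and 10 and 1 on chromosome 12, at 488 bp.

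The most unequal pairs by fold differed mainly in input. On chromosome 2, peaks starting at 24579790 and 24584707 had 9 and 7 ChIP tags against 1 and 12 input tags, with folds of 169.87 and 11.01. On chromosome 5, at 35897914 and 35902751, 9 and 6 ChIP tags stood against 1 and 9 input tags. On chromosome 12, peaks only 488 bp apart, starting at 5040919 and 5041407, had 6 and 8 ChIP tags against 10 and 1 input tags, with folds of 11.32 and 151. All 5 near peaks with a fold above 100, a fold found at 1.36% of all listed peaks, had a single input tag. The pairs on chromosome 27 at 3837465 and 3842213 and on chromosome 19 at 8949701 and 8955651 also differed mainly in input, with 11 and 2 input tags, and 1 and 6.

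The most unequal pairs by ChIP tags, after that on chromosome 23, were modest. On chromosome 4, peaks starting at 38470011 and 38475583 had 6 and 15 ChIP tags, and their folds of 22.65 and 20.22 were close, since input was 5 and 14 tags. On chromosome 26, at 74146 and 80415, there were 7 and 15 ChIP tags against 8 and 10 input tags. On chromosome 15 at 20539 and 25245, and on chromosome 2 at 19782628 and 19788214, each pair had 7 and 14 ChIP tags. The neighbour with more ChIP tags also had more input tags in each of these 4 pairs, and the counting intervals of all 4 ratios held 1.

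The 14 linked peaks of chromosome 1 ran over 63.3 kb, between 100348374 and 100411694, with no other listed peak for 1629 kb before them and 1287 kb after them. Along the stretch, ChIP and input tags moved the same way in 10 of the 13 steps between adjacent peaks. The first 3 peaks, starting at 100348374, 100352565 and 100354627, had 92, 145 and 424 ChIP tags against 246, 361 and 362 input tags. The next pair, at 100360193 and 100365264, was low, with 33 and 21 ChIP tags against 114 and 57 input tags. Then came the high middle, at 100373585, 100378285, 100381871 and 100384543, with 659, 714, 610 and 392 ChIP tags against 874, 748, 1019 and 699 input tags.

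Beyond the middle, peaks at 100388054, 100392626 and 100398887 had 103, 91 and 143 ChIP tags against 113, 117 and 155 input tags. The peak at 100405591 was the lowest, with 15 against 54, and the last, at 100411492, had 352 against 276. Over the 14 peaks the rho of ChIP with input tags was 0.938, a description of sites that share a stretch and both libraries. The caller's 4-fold limit also keeps peaks with high input only where ChIP tags are high, which raises such a rho among listed peaks. Next to that value, adjacent peaks of the stretch were weakly alike, with a rho over 13 pairs of 0.241 for ChIP tags and 0.276 for input tags. ChIP tags differed beyond counting error in 10 of the 13 pairs and input tags in 11. Over all 13 pairs the ratio of ChIP tags between neighbours lay between 1.08 and 31.4. The fold did not follow from one peak to the next (rho -0.371) and ranged between 5.24 and 24.07.

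**Figure D5:**
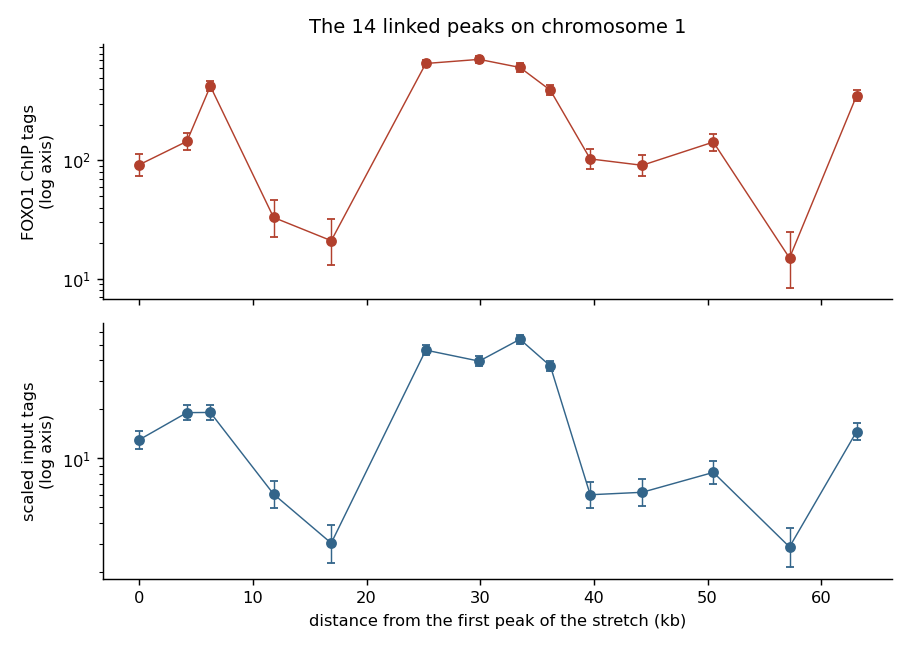
FOXO1 ChIP tags (top) and input tags scaled to the ChIP depth (bottom), both on log axes, at the 14 linked peaks by distance from the first (horizontal axis, kb), with Poisson 95% intervals. The 4 middle peaks, with 392 to 714 ChIP tags, are the highest in input and include the 3 highest in ChIP, and both libraries are lowest at the same pair of peaks, with 15 and 21 ChIP tags.

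Compared with other near peaks, the stretch was high in both libraries and in pooled fold, but not in median fold. Its median was 144 ChIP tags and 261 input tags, against 8 and 12 for the other near peaks. Its pooled fold was 13.8 (13.2 to 14.4), above 9.83 (9.47 to 10.2) for the other near peaks and 12.4 (12.2 to 12.6) for isolated peaks. Its median fold was 12.8 with an interval of 6.95 to 18.02, against 13.21 in each of those sets. It held 14 of 461 near peaks but 3794 of their 8139 ChIP tags. ChIP tags at its peaks were 0.955 to 2.06 times the score, against a median of 1 at the other near peaks.

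The 19 groups of 3 or 4 were of another kind. Their 59 peaks had 6 to 17 ChIP tags (median 8) and 2 to 46 input tags (median 12), with a median fold of 13.73, so they were made up of ordinary low peaks. They spanned 2.70 to 18.2 kb (median 9.55 kb), and 14 of the 19 lay on chromosomes 11 and above. Those chromosomes held 115 of all 214 groups and 1200 of the 3317 listed peaks, at a higher density than the others. Their pooled folds ranged between 8.31 and 23.6, with wide intervals.

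Both groups of 4 followed this. On chromosome 4, peaks starting at 352594, 358905, 366819 and 370570 had 8, 7, 13 and 11 ChIP tags against 10, 13, 21 and 11 input tags, a pooled fold of 13.4 (8.65 to 20.5). On chromosome 15, peaks starting at 8089376, 8093820, 8101876 and 8106442 had 7, 7, 6 and 9 ChIP tags against 17, 9, 5 and 14 input tags, a pooled fold of 12.2 (7.35 to 19.8). Neither stood apart from the isolated peaks' pooled 12.4.

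Among groups of 3, the highest pooled folds were on chromosomes 6 and 28. On chromosome 6, peaks starting at 31661370, 31667318 and 31668596 had 7, 9 and 9 ChIP tags against 8, 7 and 5 input tags, a pooled fold of 23.6 (12.6 to 44.8). On chromosome 28, those at 2609353, 2617383 and 2618157 had 11, 12 and 7 ChIP tags against 10, 3 and 12 input tags (22.7, 12.9 to 40.2). Also there, at 3767224, 3772957 and 3781149, 9, 9 and 10 ChIP tags stood against 12, 8 and 4 input tags. Input at all 9 peaks of these 3 groups was at or below 12 tags, the median of near peaks. A second group of chromosome 6, at 11072605, 11077234 and 11077892, had 8, 9 and 7 ChIP tags against 6, 8 and 16 input tags.

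The most compact group was on chromosome 14, where 3 peaks starting at 6407418, 6408380 and 6409913 lay within 2.70 kb. They had 9, 10 and 9 ChIP tags against 5, 13 and 11 input tags, a pooled fold of 18.2 (10.4 to 31.7). Next came chromosome 17, at 9325944, 9327276 and 9329059, with 9, 9 and 10 ChIP tags against 29, 19 and 7 input tags. All 3 members were close in ChIP tags in each case. On chromosome 18, at 9451679, 9455396 and 9457135, 7, 11 and 7 ChIP tags stood against 10, 11 and 5 input tags. On chromosome 22, at 2618392, 2618912 and 2626986, 8, 7 and 7 stood against 8, 2 and 14.

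Of the groups of 3, those with most ChIP tags held a taller member or a pair of them. A second group of chromosome 14, at 14257505, 14266181 and 14266853, had 8, 15 and 17 ChIP tags against 11, 17 and 46 input tags. On chromosome 23, at 1123062, 1131360 and 1132522, 16, 8 and 7 ChIP tags stood against 37, 22 and 8 input tags. In both, the peak with most ChIP tags also had most input tags.

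The other 7 groups of 3 had 7 to 9 ChIP tags at every peak. On chromosome 1, peaks at 51578549, 51581437 and 51587381 had 16, 9 and 22 input tags, and those at 82796054, 82805123 and 82810417 had 19, 10 and 7. On chromosome 12, peaks at 18466021, 18472124 and 18478528 had 11, 16 and 9 input tags, and on chromosome 13, those at 15893862, 15899791 and 15904957 had 18, 15 and 17. On chromosome 17, peaks at 1355866, 1361690 and 1363419 had 18, 26 and 15 input tags. Over these groups together input ran between 7 and 26 tags. On chromosome 19, peaks at 8739027, 8748651 and 8751103 had 15, 13 and 14 input tags, and on chromosome 25, those at 338117, 347130 and 355919 had 19, 11 and 14.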

How the data were processed

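The data are 1 list of FOXO1 ChIP peaks called against input DNA. The submitters' processing notes name Bowtie2 2.1.0 and HOMER 4.7. Per the file headers, HOMER findPeaks in its factor style found 4479 putative peaks at a false discovery rate of 0.001 and removed 823 by input and 338 by the local 10 kb, with 1 tag considered per bp. Total tags were deposited by the authors as raw counts. Normalized and control tags are signals that the authors scaled to 10000000 tags and to the ChIP depth, in that order. The focus ratio is a fraction, the score a tag number, the folds (over input, over the local region, clonal) ratios, and the p-values unadjusted Poisson p-values, all deposited by the authors.

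Peaks were linked by the distance between centres. Input tags were recovered as total tags divided by fold and by a step of 0.05298: at 3300 peaks the fold was printed finely enough for this, and all 3300 quotients were whole to within 0.1 of a tag, while the nearest whole number was used for the other 17. Shares have exact (Clopper-Pearson) 95% intervals, numbers of pairs and tags Poisson intervals, ratios of tags exact binomial intervals, and medians order-statistic intervals. Pooled folds are summed ChIP over summed scaled input tags. Chromosome length was taken as the highest listed peak end. No test was run: there is 1 library on each side. Steps were tested on simulated data. Peaks named are all groups of 3 or more, the 10 pairs with most ChIP tags, the 5 closest, the 5 most unequal in tags and in fold, 3 pairs on each side of the limit and the 3 isolated peaks with most tags. The members, this rule and the settings were chosen with earlier results of these data known, and the limits of 1 kb, 10 and 20 ChIP or input tags and a fold of 6 after the values were seen. A chicken gene table of another assembly was not used. Python 3.11.15, numpy 2.4.6, pandas 2.3.3, scipy 1.17.1 and matplotlib 3.10.9 were used.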

Additional observations from a re-analysis of the deposited data

How the results depend on the processing

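Of 75 alternative values over 11 results, 48 were classed as unchanged, 26 as moved and 1 as reversed. The alternatives combining 2 choices were chosen after seeing the data. Counts of near peaks and groups move with the distance by construction: 241 peaks in 116 groups at 5 kb and 812 in 355 at 20 kb, against 461 in 214. At a fold of at least 8, 347 of 2947 peaks were near, in 165 groups, which was classed as unchanged despite the lower numbers. At 5 kb the share on chromosomes 11 and above was 44.4%. The median local fold differed from isolated peaks by -4.43 at 5 kb, -3.34 at 20 kb and -4.43 at a score of at least 8, against -3.81. With that score, 210 peaks in 95 groups were near, and median input and scaled control tags were higher than at isolated peaks by 3 and 0.2. Spearman's correlation between neighbours for ChIP tags was 0.184 without the chromosome 1 stretch and 0.481 at 5 kb; for scaled control tags it was 0.255 at 20 kb. At a score of at least 8 the correlation of ChIP tags, scaled control tags and fold was 0.601, 0.691 and 0.476, and without the stretch 0.428, 0.561 and 0.567. At a fold of at least 8, which removes the peaks with most input for their tags, it was 0.145, 0.0916 and 0.0205. Without the stretch it was 0.0481, -0.00633 and 0.0215. This filter cuts the range of the fold itself, and of input for a given tag number. The lower values therefore do not show whether neighbours of higher fold are alike. With the distance taken between facing edges, every result was classed as unchanged. No paired analysis was possible because ChIP and input are single libraries. At 8 tags per near peak in the median, small differences between neighbours were not detectable.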

Other observations

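Near peaks were frequent at the starts of chromosomes. The first 100 kb of the chromosomes held 16 near peaks (3.47% of all near peaks, exact 95% interval 2.00 to 5.58), as a linked pair on each of 8 chromosomes. The members of a pair come together by the rule, so this interval is too narrow. Isolated peaks there numbered 18 (0.630%, 0.374 to 0.994), on 16 chromosomes. Of all 3317 listed peaks, 34 (1.03%, 0.711 to 1.43) lay there. Median input at these near peaks was 20 tags, between 8 and 61, and their median fold was 8.92, against 13 input tags and a fold of 11.8 for the isolated peaks there. The 6 of them with a neighbour within 1 kb, on 3 chromosomes, had 18 to 61 input tags and a median fold of 5.45. The limit of 100 kb was taken from an earlier description of these data. Chromosomes 11 and above, where 100 kb is a larger part of the length, held 53.1% of near peaks and 33.4% of isolated peaks. The difference at chromosome starts was not adjusted for this and was not tested.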
